A study of Oryza sativa with 6 samples.

Results

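For each of 62 genes, a group of probes lay near the background of the array in wild-type (WT) rice seeds. The same probes gave a higher signal in seeds in which *OsMADS29* had been silenced (MADS29_KD). Other probes of 5 of these genes were above background in WT. The genes were chosen by their measured values. A probe set, the group of short probes that reports on a transcript, had to lie under a signal of 8 on all 3 WT arrays and at 16 or higher on all 3 MADS29_KD arrays, where signal is the deposited intensity on a linear scale. Of 57194 probe sets, 93 (0.163%) met these limits, and 43 (0.0752%) met them with the groups exchanged. The genes *rab25*, *RAB16B*, *OsPM19L1*, *RAmy3E*, *Agglutinin* and *OsGER1* also met them and were set aside, which left 87 probe sets. Among these, 63 were paired with a single gene and came from 62 of the 17905 genes measured, 23 had no gene in the array annotation, and 1 was paired with several genes. The limits fixed the direction and the least size of each difference, so the members are described below by their values and no test of their differences is given.

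Rice grains pass from cell division through filling to maturation. Abscisic acid and drying are known to switch on protective proteins, raffinose sugars and stress-responsive regulators late in this course, when young seeds have little of them. The product of *OsMADS29* is a B-sister MADS-box protein, and B-sister factors are known for their part in the maternal tissues of ovules and seeds.

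All seeds were of the variety PB1 and at the S3 stage, which covers days 5 to 10 after pollination, and 3 samples stood in each group. WT plants had the wild-type genotype, and MADS29_KD plants carried an RNA interference construct against *OsMADS29* whose promoter is not given in the sources used here. The samples are described as biological replicates. The sources used here, which lack the supplementary methods, do not say whether they came from separate plants or from which transformed lines. The p-values thus measure only the spread between these samples. Whole seeds were extracted, so in any difference below a change in the number of cells of a type and a change in RNA per cell cannot be told apart.

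*OsMADS29* itself gave a signal of 143, 96.8 and 158 on the WT arrays and of 35.9, 34.4 and 29.9 on the MADS29_KD arrays. The groups did not overlap, and the gene fell by 1.96 ± 0.21 on the log2 scale (SE, limma adjusted p = 0.00725), or 3.89-fold, with some transcript left on every MADS29_KD array. The 64 probe sets for reporter genes, which are foreign to rice, set the background of each array at their 95th percentile. This level was 6.995 to 7.11 on the WT arrays and 7.49 to 7.88 on the MADS29_KD arrays. The control probe set at the 5′ end of actin had a log2 signal of 2.33 on WT replicate 2 and of 2.75 on MADS29_KD replicate 1, which is background, while the remaining arrays had 5.86 to 6.42, so each group holds 1 array of this kind. The probe set at the 3′ end had 10.90 to 11.05 on the WT arrays and 10.36 to 10.53 on the MADS29_KD arrays. It was thus far above the 5′ end on every array and lower in MADS29_KD. Whether this had a part in the values below was not tested. The precision of each value is limited by the number of arrays.

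In WT, the chosen probe sets of the 62 genes had signals between 4.47 and 7.98, and 27 of them were at or under background on all 3 arrays. Another 28 genes were at or under background on 1 or 2 WT arrays, and 7 lay slightly above it on all 3. In MADS29_KD the same probe sets gave 16.03 to 315. The median over the 62 genes was 6.66, 6.54 and 6.67 on the WT arrays and 30.9, 33.0 and 33.5 on the MADS29_KD arrays. The limits applied to every array, so the closeness of these medians is in part a result of the choice. Most of the signals were modest. The mean of the 3 MADS29_KD arrays was above 100 for 7 genes, above 50 for 16 and above 25 for 47, with a median of 32.2. The median was 58.2 over the 12458 probe sets of the array that averaged 16 or higher in MADS29_KD and were above background on all 3 of its arrays. Probe sets differ in how strongly they bind, so a higher signal of 1 gene than of another does not measure more transcript. Where the WT arrays, or their mean, were at or under background, the fold between groups is given against the background level, as a lower bound ("at least").

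**Figure D1:**
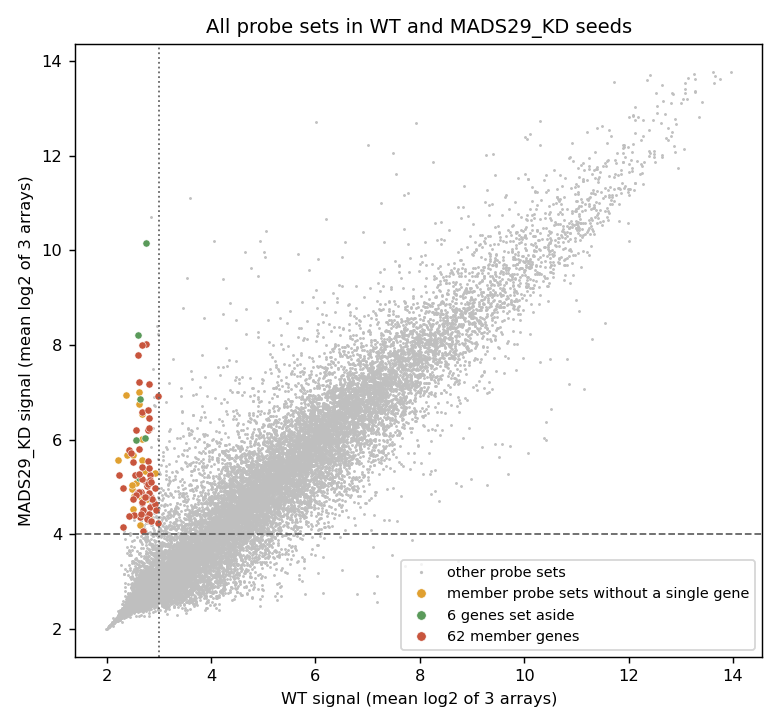
Mean log2 signal of every probe set over the 3 WT arrays (x axis) and the 3 MADS29_KD arrays (y axis). The 62 genes (red), the member probe sets without a single gene (orange) and the 6 genes set aside (green) lie in the upper left corner that the limits of 8 (dotted line, 3 on the log2 scale) and 16 (dashed line) mark out. Other probe sets (grey) lie there too, since the limits applied to each array and the points are means.

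The MADS29_KD arrays gave similar values for most of the 62 genes. The highest of the 3 arrays exceeded the lowest by a median factor of 1.29, and the SD of the log2 signal had a median of 0.19, against 0.16 over the same 12458 probe sets. The lowest array was replicate 1 for 22 genes, replicate 2 for 21 and replicate 3 for 19, and the highest was replicate 1 for 20, replicate 2 for 21 and replicate 3 for 21. Among the members, replicate 1, the MADS29_KD array with low 5′ actin signal, was lowest, and highest, about as often as the other arrays. A gene under 16 on replicate 1 could not be a member, so these counts cannot show whether that array reads low. Exceptions to the similar values were *LOC4324259*, with 21.9, 39.9 and 50.4 on MADS29_KD replicates 1 to 3, and *LOC4351818*, with 16.9, 33.6 and 44.3. Both were lowest on replicate 1, and they were the only member genes whose highest array exceeded the lowest by a factor of 2 or more (2.30 and 2.62). Whether the 5′ signal of that array had a part in these values was not tested.

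**Figure D2:**
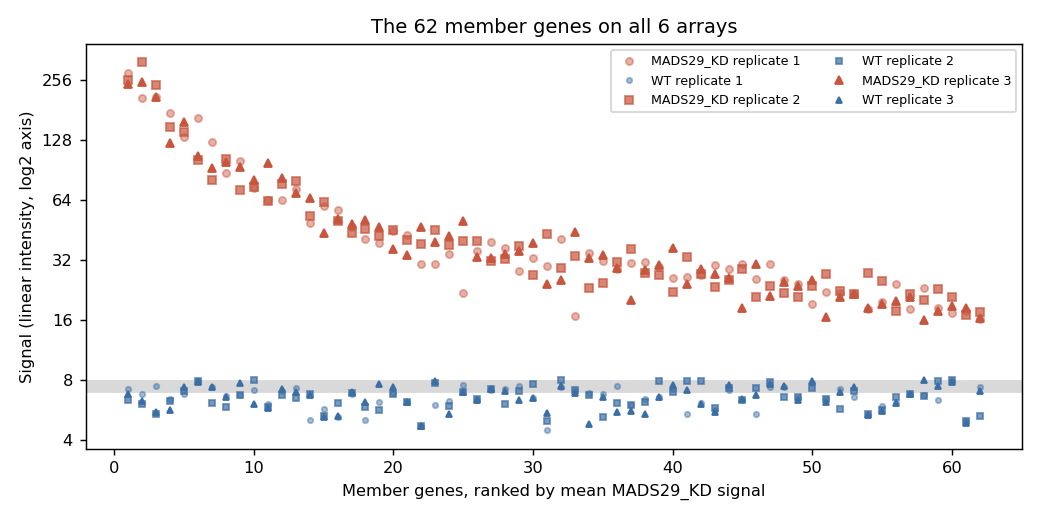
Signal of the 62 genes on all 6 arrays (y axis, linear intensity on a log2 axis), ranked along the x axis by their mean MADS29_KD signal. Blue points (WT) lie at or near the grey band, which spans the background levels of the 6 arrays, and red points (MADS29_KD) lie between 16.03 and 315 with the 3 arrays of most genes close together.

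Of the 62 genes, 61 were protein coding and 1, *LOC4325276*, was a long non-coding RNA gene. Only 15 (24.2%) carried a name other than a locus identifier, against 2442 (13.6%) of all genes measured. The 15 named genes code for regulators of stress responses, hormone components, enzymes of sugars, starch and the cell wall, transporters and a few proteins of other kinds.

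Among the regulators, the strongest signal came from *OsSAP5*, for a stress-associated protein with A20/AN1 zinc fingers, a family known from responses to drought, cold and salt. Its signal was 7.04, 6.73 and 7.25 on the WT arrays and 64.0, 77.4 and 82.8 on the MADS29_KD arrays. All WT arrays were at or near background and the MADS29_KD mean of 74.7 ± 9.68 (SD, n = 3) was at least 10.4-fold higher. This probe set is of the x_at kind, which related transcripts can also bind. A further probe set of the gene met the limits too, with 6.59, 6.68 and 6.46 in WT and 50.7, 72.8 and 82.5 in MADS29_KD. On both probe sets replicate 1 was the lowest MADS29_KD array. Of 13 measured genes of the family, 5 were under 8 on all WT arrays, and *OsSAP5* was the only 1 of them to reach 16 in MADS29_KD. *OsSAP2*, another of the 5, averaged 5.58 in WT and 12.8 in MADS29_KD.

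*OsC3H10*, for a CCCH zinc finger protein, a class that can bind RNA, had signals of 6.84, 6.84 and 6.98 in WT and 47.1, 43.6 and 48.8 in MADS29_KD. The 3 MADS29_KD arrays were close to each other, and their mean of 46.5 ± 2.68 (SD, n = 3) was at least 6.60-fold above the WT background. The array measured 50 genes of this class. In WT, 8 of them were under 8 on all arrays, and of these 8 only *OsC3H10* reached 16 in MADS29_KD.

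*HSFB2C* codes for a heat shock factor of class B, which lacks the activation domain of class A factors. Its member probe set, of the x_at kind, gave 5.40, 7.93 and 7.17 in WT and 26.3, 33.3 and 24.3 in MADS29_KD, with 1 WT array at or under background. The mean of 28.0 ± 4.73 (SD, n = 3) was at least 3.77-fold higher than in WT. A brighter probe set of the same gene stood at 11.9, 11.7 and just under 16 in WT and at 129, 125 and 124 in MADS29_KD. By that probe set the transcript was present at a low level in WT, and the remaining probe set moved less, from 8.44, 7.83 and 8.29 to 11.7, 19.5 and 9.92.

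*OsPP2C66*, *OsETR4* and *CYP734A4* belong to families that act in hormone pathways, though many type 2C phosphatases have no known part in one. *OsPP2C66*, for such a phosphatase, gave 5.05, 5.87 and 6.17 in WT and 41.0, 46.0 and 50.9 in MADS29_KD. All WT arrays were at or under background, and the MADS29_KD mean of 46.0 ± 4.94 (SD, n = 3) was at least 6.51-fold higher. The other probe sets of *OsPP2C66* did not follow. The brighter of them gave 18.9, 21.1 and 16.6 in WT and 20.5, 17.9 and 20.6 in MADS29_KD, with the groups overlapping, and the other gave 9.64 to 14.0 and 8.60 to 16.9. Which transcripts of the gene each probe set reports was not examined.

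*OsETR4*, of the ethylene receptor family, gave 6.36, 6.44 and 6.33 in WT and 35.5, 39.8 and 33.3 in MADS29_KD. Its WT arrays were all at or under background, and its MADS29_KD mean of 36.2 ± 3.30 (SD, n = 3) was at least 5.12-fold higher. The other 4 genes of the family had signals above background in WT. *ERS1* had signal in both groups (mean 188 in WT and 359 in MADS29_KD), and *ETR2* averaged 31.6 and 17.4. *ETR3* (11.9 and 9.23) and *ERS2* (11.4 and 8.37) stayed under 16 in both groups.

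*CYP734A4* codes for a cytochrome P450 that inactivates brassinosteroids. It gave 7.41, 7.96 and 7.45 in WT, slightly above background on every array, and 41.1, 29.3 and 25.4 in MADS29_KD. The MADS29_KD arrays spread more than for most members, and their mean of 31.9 ± 8.14 (SD, n = 3) was 4.11-fold above WT. *CYP734A6*, the other gene of this kind that was measured, averaged 8.50 in WT and 8.33 in MADS29_KD.

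Enzymes of starch, sugars and the cell wall are encoded by *Sbe1*, *RFS*, *OsXTH8* and *Os10bglu34*. *Sbe1*, for a starch branching enzyme, is the clearest case in which a single probe set does not speak for the gene. The member probe set gave 6.01, 6.01 and 5.61 in WT and 31.1, 36.3 and 20.2 in MADS29_KD, a mean of 29.2 ± 8.26 (SD, n = 3) and at least 4.03-fold higher. Of the 7 further probe sets of *Sbe1*, 4 were bright in both groups, with WT means from 2037 to 7178 and MADS29_KD means from 2719 to 8925. The brightest of these gave 7164, 7062 and 7307 in WT and 9193, 8909 and 8673 in MADS29_KD, a ratio of 1.24. The remaining 3 were at or under background on all 6 arrays. The gene was thus expressed in WT seeds, and the pattern of silence and signal holds for the member probe set alone.

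*RFS* is annotated with the symbol of raffinose synthase, an enzyme that makes a sugar stored in drying seeds. Its signals were 6.38, 7.86 and 7.49 in WT and 18.5, 22.8 and 17.7 in MADS29_KD. The groups were closer here than for any other named member, at a MADS29_KD mean of 19.7 ± 2.76 (SD, n = 3) and a fold of 2.71, with 1 WT array at or under background.

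*OsXTH8*, for an enzyme that cuts and rejoins xyloglucan in the cell wall, gave 7.19, 6.95 and 7.56 in WT and 26.2, 22.0 and 36.9 in MADS29_KD. The mean of 28.4 ± 7.70 (SD, n = 3) was 3.83-fold higher, with replicate 3 well above the other arrays and 1 WT array at or under background. *Os10bglu34*, for a beta-glucosidase of family 1, gave 7.12, 7.33 and 7.59 in WT and 28.8, 25.6 and 26.2 in MADS29_KD (mean 26.9 ± 1.73, SD, n = 3, 3.65-fold). The MADS29_KD arrays of *Os10bglu34* lay close together. Of 27 measured genes of its family, 11 were under 8 on all WT arrays and only *Os10bglu34* among these reached 16 in MADS29_KD. Of the 7 genes of the family at 16 or higher on all WT arrays, 4 averaged higher in MADS29_KD, such as *BGLU31* (mean 151 in WT and 571 in MADS29_KD), and 3 averaged lower, such as *BGLU8* (99.1 and 47.0). Among the genes between these classes, *BGLU14*, *BGLU16* and *BGLU25* were higher in MADS29_KD by 3.68-fold, 4.05-fold and 3.91-fold. *BGLU5*, *BGLU9* and *BGLU12* averaged higher by smaller factors, and *BGLU10*, *BGLU26* and *BGLU27* averaged lower. A rise of this size was thus not particular to *Os10bglu34* in its family.

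Both transporter genes among the named members belong to small groups. *OsAMT1;1*, for an ammonium transporter known mainly from roots, gave 7.50, 6.15 and 5.55 in WT and 28.9, 31.4 and 29.3 in MADS29_KD. The MADS29_KD mean of 29.8 ± 1.37 (SD, n = 3) was at least 4.14-fold higher, with little spread between arrays. Its other probe set was flat at 5.41 to 5.51 over all 6 arrays, which is under background. Of the 8 ammonium transporter genes measured, 7 were under 8 on all WT arrays and of these only *OsAMT1;1* reached 16. *AMT3-2*, the exception in WT, averaged 13.5 there and 33.2 in MADS29_KD.

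*STAR1* codes for the nucleotide-binding subunit of an ABC transporter that rice needs to tolerate aluminium. It gave 6.53, 6.55 and 6.35 in WT and 24.2, 20.9 and 23.7 in MADS29_KD. All WT arrays were at or under background, and the MADS29_KD mean of 22.9 ± 1.80 (SD, n = 3) was at least 3.25-fold higher. *STAR2*, for the membrane subunit of the same transporter, had signal in WT already, at 37.8, 34.7 and 38.5, and gave 121, 114 and 181 in MADS29_KD. *STAR3* averaged 21.9 and 21.4.

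The 3 remaining named members have other roles. *PDX12*, of the PDX1 family of vitamin B6 synthesis, gave 6.85, 6.76 and 4.81 in WT and 34.8, 23.2 and 32.7 in MADS29_KD (mean 30.2 ± 6.19, SD, n = 3, at least 4.23-fold). Replicate 2 was the lowest MADS29_KD array. *PDX11*, of the same family, had signal in both groups, with means of 203 and 243.

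*OsGER2*, for a germin-like protein of the cell wall, gave 6.81, 5.23 and 6.60 in WT and 31.8, 24.7 and 33.9 in MADS29_KD (mean 30.2 ± 4.83, SD, n = 3, at least 4.24-fold). All of its WT arrays were at or under background. Of 8 germin-like genes measured, 7 were under 8 on all WT arrays, and *OsGER2* and *OsGER1*, which was set aside, were the ones that reached 16. *GER3* was among the bright signals of the array in both groups, with means of 9926 and 10625. *OsENODL18*, for an early nodulin-like protein, gave 6.57, 7.03 and 7.42 in WT and 21.6, 21.7 and 21.7 in MADS29_KD. Its MADS29_KD arrays differed by less than those of any other member gene (mean 21.6 ± 0.0808, SD, n = 3, at least 3.01-fold).

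**Figure D3:**
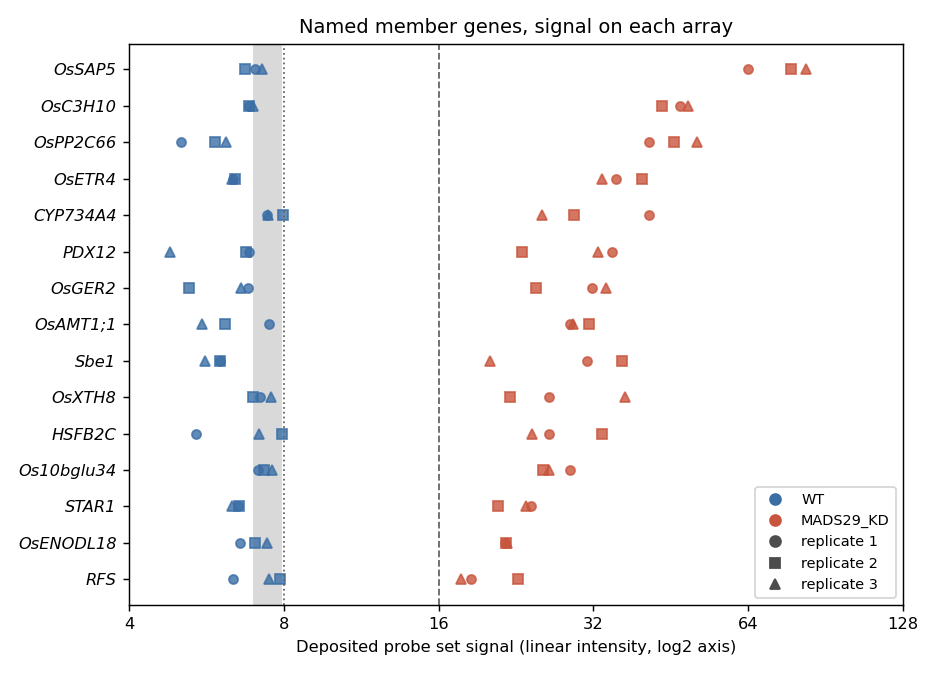
Signal of the 15 named genes on each array (x axis, linear intensity on a log2 axis), with WT in blue, MADS29_KD in red and the replicates as circles, squares and triangles. The grey band spans the background levels of the 6 arrays, and every gene leaves a gap between 8 (dotted line) and 16 (dashed line), as the limits require, with *OsSAP5* highest at 64.0 to 82.8 and *RFS* lowest at 17.7 to 22.8.

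The families above were looked up after the members' values were seen, and their other genes were measured by the probe set with the highest mean over the 6 arrays. A relative that met both limits would itself be a member or set aside. Counts of relatives that reached 16 thus restate the choice of members. Over the whole array 0.163% of probe sets met both limits. A signal under 8 was common on the array, where the median of each column was 6.05 to 6.18. Counts of relatives under 8 in WT are thus not particular to these families. The share of all genes under 8 on every WT array is not given here. The family figures are values only and were not tested.

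The 3 member genes with the highest signals had no name. *LOC4340902* gave 7.24, 6.34 and 6.81 in WT and 279, 258 and 246 in MADS29_KD (mean 261 ± 16.9, SD, n = 3, at least 36.6-fold). *LOC4326054* gave 6.81, 6.03 and 6.30 in WT and 209, 315 and 253 in MADS29_KD (mean 259 ± 53.5, SD, n = 3, at least 36.2-fold). In both, WT was at or near background on every array, and the MADS29_KD arrays agreed more closely for *LOC4340902*. The non-coding *LOC4325276* gave 7.45, 5.42 and 5.52 in WT and 212, 242 and 211 in MADS29_KD (mean 222 ± 17.1, SD, n = 3, at least 30.8-fold). The other 4 genes above 100 were *LOC4331521*, *LOC4343084*, *LOC4340512* and *LOC4331751*, with MADS29_KD means of 150, 144, 125 and 100.2. Of these, *LOC4340512* was above background on all WT arrays, with a measured fold of 15.4, and *LOC4343084* was at or under it on 2 of the 3.

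The 23 member probe sets without a gene had MADS29_KD means from 18.4 to 126, with a median of 33.1, close to that of the 62 genes. Os.46314.1.S1_x_at was the brightest, with 5.12, 5.31 and 5.10 in WT and 98.7, 117 and 164 in MADS29_KD (mean 126 ± 33.5, SD, n = 3, at least 17.5-fold). Os.18480.1.S1_at gave 98.8, 120 and 108 in MADS29_KD and Os.11707.1.A1_at gave 71.4, 81.9 and 139, at least 15.4-fold and 13.3-fold above WT. The first and the last of these spread widely over the MADS29_KD arrays. OsAffx.31140.1.S1_at, singled out after its values were seen, was more uneven still, with 21.7, 111 and 111, so MADS29_KD replicate 1 stood apart from the others by a factor of 5.14. The probe set paired with several genes, Os.9824.1.S2_at, averaged 129 ± 11.3 (SD, n = 3) in MADS29_KD, at least 18.3-fold above WT, and names no gene.

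The set has no natural edge at the limits. Just inside the WT limit lay *LOC4330772*, *LOC4324968* and *LOC4352184*, with a highest WT value of 7.98, 7.98 and 7.96. *LOC4324802*, *LOC4331944* and *LOC4324081* lay just outside it, at 8.01, 8.05 and 8.06. At the other limit, the genes *LOC4330772*, *LOC4346484* and *LOC4335866* were just inside, with a lowest MADS29_KD value of 16.03, 16.1 and 16.6, and 3 member probe sets without a gene lay closer than *LOC4335866*, at 16.5, 16.5 and 16.6. *LOC4345867*, Os.26511.1.S1_at and Os.39997.1.S1_x_at were just outside, each at 15.5. *LOC4330772* was the member nearest to both limits.

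Further probe sets of the same genes show how far silence in WT holds for a gene rather than for a probe set. For 52 of the 62 genes the array has a single probe set, and 10 genes have 18 further ones. Of the 18, 6 were at or under background on all 6 arrays and carry no information on either group. For 4 genes, *Sbe1*, *OsPP2C66*, *LOC4324064* and *LOC4350386*, a further probe set reached 16 on a WT array, which goes against calling the gene silent there. The further probe set of *LOC4324064* gave 85.1, 80.2 and 84.7 in WT and 417, 402 and 424 in MADS29_KD, and that of *LOC4350386* gave 48.1, 59.5 and 48.3 in WT and 374, 298 and 320 in MADS29_KD. Both genes thus had signal in WT and a higher one in MADS29_KD, by 4.97-fold and 6.37-fold. A further probe set of *HSFB2C* missed that level but was above background on all 3 WT arrays, as described above. The members are better described as probe sets near background in WT, and 57 genes remain without the 5 genes that have a further probe set above background on all WT arrays.

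**Figure D4:**
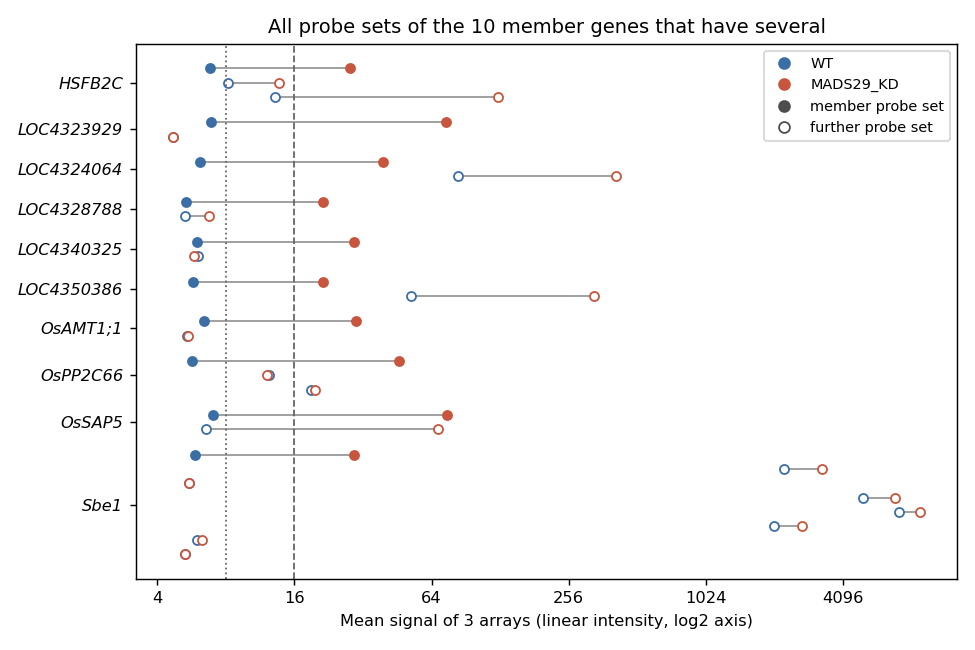
Mean signal of 3 arrays (x axis, linear intensity on a log2 axis) in WT (blue) and MADS29_KD (red) for every probe set of the 10 member genes that have several. Filled points are the member probe sets and open points the further ones, and a grey line joins the groups. Both probe sets of *OsSAP5* move alike, whereas *Sbe1* has 4 further probe sets at 2037 or higher in both groups and *OsPP2C66* has a further one near 19 in both.

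Further genes were counted in 5 lists matched by gene symbol, 4 of which held a named member and 1 of which, the LEA list, held no member but did hold genes that were set aside. The members and the 6 genes set aside were left out, and each gene had 1 probe set. A gene was called at a limma adjusted p under 0.05 and at least 2-fold. On this scale 4.56% of 17837 genes were called higher in MADS29_KD and 5.94% lower, with a median log2 difference of 0.0058. Over probe sets the same rule called 2.05% higher and 2.49% lower. The lists were drawn up with results of these arrays known, so their counts are no independent evidence.

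The list of small heat shock proteins and heat shock factors, to which *HSFB2C* belongs, had 9 of 39 genes called higher and 0 lower, or 23.1%, with a median log2 difference of 0.26. Small heat shock proteins are chaperones that keep unfolded proteins from clumping. *HSP18.6* rose by 3.97 ± 0.07 on the log2 scale (SE, adjusted p = 0.000104), *HSP16.9A* by 1.78 ± 0.04 (adjusted p = 0.000119) and *HSP16.9B* by 2.32 ± 0.11 (adjusted p = 0.000758). *HSF1* and *HSF23*, named after their values were seen because they code for heat shock factors as *HSFB2C* does, rose by 1.65 ± 0.12 (adjusted p = 0.00224) and 1.20 ± 0.12 (adjusted p = 0.00568). All of these had signal above background in WT, and 11 of the 39 genes were at or under background on all 6 arrays.

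Of 6 genes for dehydrins and other late embryogenesis abundant (LEA) proteins, which protect cells as they dry, 3 were called higher and 0 lower, with a median log2 difference of 2.07. They were *RAB21* (7.51 ± 0.06, SE, adjusted p = 1.98e-05), *LEA19* (3.48 ± 0.16, adjusted p = 0.000731) and *EM* (3.46 ± 0.12, adjusted p = 0.00039). The list held no member once *rab25*, *RAB16B* and *OsPM19L1* were set aside.

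The list for abscisic acid, to which *OsPP2C66* belongs, had 5 of 72 genes called higher (6.94%) and 3 lower (4.17%), with a median log2 difference of 0.10. These shares are near those of all genes, and without WT replicate 2 the counts were 9 and 0. The list holds every gene named as a type 2C phosphatase, and many of these are not known to act in abscisic acid signalling. *OsPP2C27* rose by 3.74 ± 0.07 (SE, adjusted p = 0.000119), *OsPP2C02* by 1.39 ± 0.10 (adjusted p = 0.00209) and *OsSAPK9*, for a kinase activated by abscisic acid, by 1.37 ± 0.10 (adjusted p = 0.00209). *OsPYL11*, for a receptor of the hormone, fell by 1.08 ± 0.11 (adjusted p = 0.00596), the phosphatase gene *OsPP2C11* fell by 1.10 ± 0.12 (adjusted p = 0.00794) and *OsPP2C33* fell by 1.11 ± 0.15 (adjusted p = 0.0149).

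Sugar genes, the list of *RFS*, split evenly, with 3 of 38 called higher and 3 lower (median 0.04). *OsSUS4*, for sucrose synthase, *OsSPS2*, for sucrose phosphate synthase, and the sugar exporter gene *OsSWEET15* rose by 2.51 ± 0.07, 1.30 ± 0.14 and 1.28 ± 0.11 (SE, adjusted p = 0.000249, 0.00718 and 0.00339). *OsTPP3*, for trehalose phosphate phosphatase, fell by 1.70 ± 0.06 (adjusted p = 0.000335), *OsSUS3* fell by 1.42 ± 0.08 (adjusted p = 0.00129) and the invertase gene *CINV1* fell by 1.06 ± 0.17 (adjusted p = 0.0225). Of 29 genes of cell wall loosening, the list of *OsXTH8*, 1 expansin gene rose (*EXP2*, by 1.78 ± 0.20, adjusted p = 0.00767) and 1 fell (*EXP6*, by 1.39 ± 0.08, adjusted p = 0.00139), with a median of 0.02 and 13 genes at background on all 6 arrays. Without MADS29_KD replicate 1, 2 cell wall genes were called higher.

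**Figure D5:**
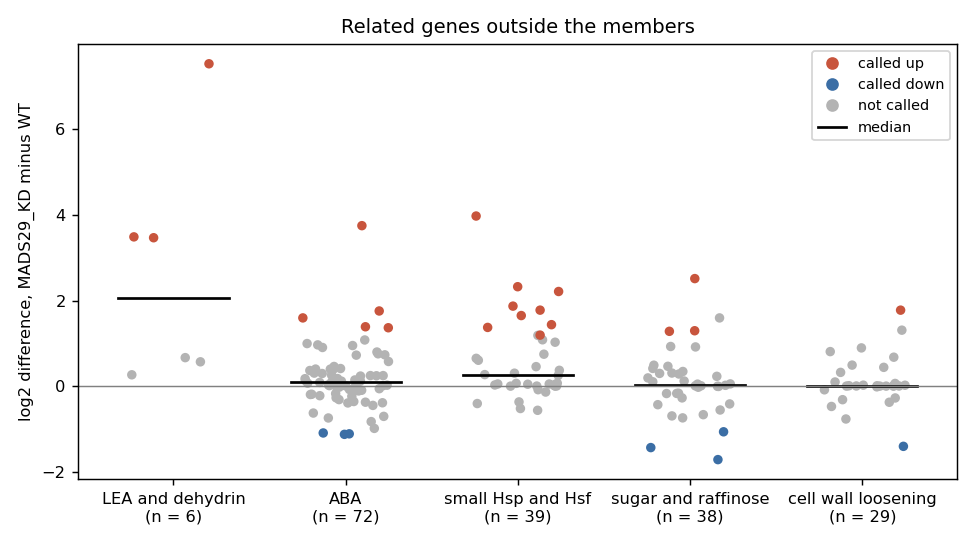
Log2 difference between MADS29_KD and WT (y axis) of each gene in the 5 lists of related genes (x axis), members left out. Red points were called higher, blue points lower and grey points were not called, and black bars are the list medians, 2.07 for LEA and dehydrin genes and between 0.02 and 0.26 for the others.

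Only the direct neighbours of the members were examined, without coordinates, so looser clusters could not be seen. In the order of RefSeq genes 0 of the 62 stood next to each other, and *OsGER2* alone had a neighbour among the genes set aside, *OsGER1*, which gave 6.26, 5.16 and 6.32 in WT and 61.2, 64.1 and 64.6 in MADS29_KD. *GER3*, bright in both groups, lies on the other side of *OsGER2*. Of the 74 other measured neighbours, 4 (5.41%) were called higher and 2 lower, with a median log2 difference of 0.02, so neighbours were called higher about as often as genes in general. The 4 were *LOC4351817*, *LOC4336366*, next to *OsAMT1;1*, *LOC4340558* and *LOC9269196*. *LOC4351817*, next to the uneven member *LOC4351818*, gave 16.6, 20.2 and 15.3 in WT and 40.2, 48.7 and 53.7 in MADS29_KD, and was likewise lowest on MADS29_KD replicate 1.

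Marker genes of seed tissues moved between the groups as well. The summed signal of 7 starchy endosperm genes, which include *Sbe1* by its brightest probe set, was 40939 to 45300 in WT and 60466 to 61740 in MADS29_KD. The samples thus carried the defining signal of grain tissue, although 1 of them, *GluB4*, was at background on all 6 arrays. Of 11 embryo genes, 5 were at background on all arrays, and the sum rose from 367 to 443 in WT to 2375 to 2778 in MADS29_KD, of which *EM* made up 191 to 242 and 2181 to 2556. The embryo gene *OsVP1* was at 32.8 to 40.4 in WT and higher, at 66.6 to 75.9, in MADS29_KD. Its log2 difference of 0.968 fell short of a call. *OSH1* was at 27.8 to 29.5 in WT and 24.1 to 27.9 in MADS29_KD. *ROC1* (62.9 to 81.5 and 49.7 to 70.8) and *OsWOX13* (17.8 to 20.3 and 15.1 to 22.9) were not called either. Of 4 anther genes 3 were at background on all arrays, and their sum was 23.7 to 24.8 in WT and 24.1 to 26.6 in MADS29_KD. The lists for the other tissues held genes called in both directions, for the nucellus only through the silenced gene itself. Of 3 aleurone genes, *LTP110-A* was called lower (3366 to 3805 in WT and 1517 to 1613 in MADS29_KD) and *LTP* higher (132 to 160 and 583 to 687). *LTP110-A* carried most of their sum, which was 3571 to 4015 in WT and 2136 to 2339 in MADS29_KD. Of 3 genes of the green pericarp, *CAB2R* was called lower (7681 to 8136 and 3141 to 3724) and *OsrcaA1* higher (262 to 288 and 888 to 1102), and their sum, mostly *CAB2R*, was 8190 to 8658 and 4454 to 4793. Of 4 genes listed for the nucellus, *OsVPE1* was called higher (579 to 590 and 1248 to 1307). *OsMADS29*, the target of the silencing, was called lower, so its fall does not report on the tissue. *OsAsp1* was not called, at 11.8 to 12.2 in WT and 5.63 to 7.61 in MADS29_KD. *OsSWEET11*, also not called, made up most of the sum of 4585 to 5079 in WT and 5726 to 6448 in MADS29_KD. Whether these genes are particular to the nucellus was not examined. The part of these tissues in the signals of the 62 genes was not tested.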

How the data were processed

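The authors deposited a table of probe set intensity values on a linear scale (3.98 to 16101) for the Affymetrix rice genome array, made per the labels from Trizol-extracted total RNA by biotin labelling of 500 ng. The sources used here do not give the background correction, normalization or software, and the values were not normalized again. Of 57381 probe sets, 123 AFFX and 64 reporter probe sets were kept out of the tests. The array annotation gave a single gene for 22436 probe sets, several genes for 95 and no gene for 34663, and the 17905 genes were all found in RefSeq assembly ASM3414082v1, used for names and gene order only.

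Members were taken by the limits on each array, with the probe set brightest in MADS29_KD for each gene. The members and gene lists were chosen with earlier results of these data known. Differences outside the members came from limma 3.58.1 (R 4.3.3) and its moderated fits to log2 values with Benjamini-Hochberg adjustment over 57194 probe sets, after a test on simulated data. Lower bounds were computed per array against the higher of signal and background level. Fitted p-values of the members were not used. Named genes are *OsMADS29*, members with a gene name, the 3 brightest members without a name and without a gene, those nearest the limits, and up to 3 called genes in each direction per list. A further 5 planned lists were not used, and their counts are not given. They hold no member, and some of their symbols also matched other families. This reason was not applied evenly. The LEA list, which was used, holds no member either, and the unused list for amylases covers *RAmy3E*, a gene set aside. Samples were not paired by replicate number, since no source says that the number marks a shared batch. Alternatives covered the limits, background, scaling, model, probe set kind and each array left out.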

Additional observations from a re-analysis of the deposited data

How the results depend on the processing

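The count of 62 genes and 87 probe sets depends on the limits. A WT limit of 6 gave 7 and 13, a WT limit of 10 gave 116 and 152, a MADS29_KD limit of 24 gave 38 and 54, and each array's background as the WT limit gave 28 and 45. Without genes that had a further probe set at 16 or higher on a WT array 58 genes remained, and without those with one above background on all WT arrays 57, both choices made after seeing the data. The 43 probe sets of the exchanged pattern became 1, 117, 17 and 27 under these limits, 111 with the higher limit at 12, and 84 with the arrays that have 5′ actin signal only. Leaving out an array gave 67 to 77 genes, 93 to 106 probe sets and 48 to 64 of the exchanged pattern.

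Of the limma calls, 1170 higher and 1426 lower, log2(value + 16) gave 700 and 623. The replicate number as a block gave 608 and 598. The deviations of arrays with the same number correlated at −0.55 to 0.45, and those with different numbers at −0.56 to 0.69. With 3 arrays in each group these values cannot decide whether the number marks a shared batch. Leaving out an array gave 922 to 1128 and 1053 to 1378. Under the replicate block the fall of *OsMADS29* missed the threshold (adjusted p = 0.0796). The 5 higher abscisic acid genes became 9 (array weights), 9 (quantile normalization), 3 (log2(value + 16)) and 3 (replicate block), and the 3 lower ones 1, 3, 0 and 1. Without WT replicate 2 they were 9 and 0, within ranges of 5 to 9 and 0 to 3. The 9 heat shock genes became 4 under the block (8 to 10 with an array left out). The 1 higher cell wall gene became 2 with 5′ actin arrays only, 2 with probe sets of mean log2 of 3 or higher only, and 0 under the block (1 to 2, with 2 without MADS29_KD replicate 1), and the 1 lower became 0 with log2(value + 16). The 4 higher neighbours became 1 with log2(value + 16), 2 under the block and, added after seeing the data, 2 without x_at, s_at and a_at probe sets (3 to 4 with an array left out). The causes were not tested. Another 219 values that answer a comparison stayed within 1.5 times.

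The planned promoter motifs and protein features were not run, since no such sequences were given. At these signals, near background, small differences between arrays decide which genes meet the limits.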
